A study of Homo sapiens with 4 samples.

Results

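The genes described here encode 9 proteins of the synaptic vesicle and its release machinery, SYT1, SNAP25, STX1A, VAMP2, SYP, SYN1, CPLX1, CPLX2 and RAB3A. They were chosen by name, for their place in neurotransmitter release, with earlier results of the same arrays known, so their levels are given as a description without a test. All 9 were matched, among 17217 named genes in all. HEK293 is a human line, grown out of embryonic kidney after transformation with adenovirus DNA, in which cloned receptors are often expressed. RNA came from 4 untreated cultures of this single line, grown in serum-containing medium on separate plates and extracted separately, and each was hybridised in 1 colour to a NimbleGen array with 3 probes per target. Across genes, Pearson's r between arrays was at least 0.949. Of 15 kidney epithelium markers 4 were called above and 10 below the baseline explained further on, with the keratin KRT8 at 4.80 ± 0.66 log2 units and the adhesion protein EPCAM at 3.84 ± 0.90 (SD, n = 4 for each). Over all genes 45.8% were called above and 41.1% below. Without AFG2A and SPATA13, the controls nearest to the baseline, 11 of the 15 markers were detected in place of 4. Of all genes 74.0% were then detected in place of 52.7%. There was 1 group, so a gene could be compared only with the baseline of its own array.

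In a neuron, transmitter is held in small vesicles that fuse with the plasma membrane when calcium enters. VAMP2 on the vesicle and STX1A and SNAP25 on the plasma membrane are SNARE proteins, which zip into a bundle that pulls the membranes together. SYT1 is the calcium sensor, CPLX1 and CPLX2 are complexins that clamp and prime the SNARE bundle, SYN1 ties vesicles to each other and to actin, RAB3A is a small GTPase of the vesicle surface, and SYP (synaptophysin) is an abundant membrane protein of the vesicle. Every cell secretes, and most use related SNAREs and Rab proteins for it. Outside the nervous system many neuronal genes are held silent by REST, a zinc finger repressor that binds a DNA element called RE1.

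The promoters printed here are those of SYN1, which holds an RE1-like sequence, and of SYP and CPLX2, the genes farthest above and farthest below the baseline. They are the 250 bases before the transcription start in RefSeq, build GRCh38.p14, written 5′ to 3′ on the strand of the gene. SYN1 lies on the minus strand, at chrX:47619858-47620107, and its capitals mark the RE1-like match. SYP lies on the minus strand, at chrX:49200194-49200443, and CPLX2 on the plus strand, at chr5:175796283-175796532. In these last promoters the capitals mark CpG dinucleotides.
SYN1: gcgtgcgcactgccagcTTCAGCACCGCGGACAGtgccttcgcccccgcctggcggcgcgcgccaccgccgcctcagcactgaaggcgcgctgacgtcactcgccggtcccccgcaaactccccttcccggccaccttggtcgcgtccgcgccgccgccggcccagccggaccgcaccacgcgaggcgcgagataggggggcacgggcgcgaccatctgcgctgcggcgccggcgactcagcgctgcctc
SYP: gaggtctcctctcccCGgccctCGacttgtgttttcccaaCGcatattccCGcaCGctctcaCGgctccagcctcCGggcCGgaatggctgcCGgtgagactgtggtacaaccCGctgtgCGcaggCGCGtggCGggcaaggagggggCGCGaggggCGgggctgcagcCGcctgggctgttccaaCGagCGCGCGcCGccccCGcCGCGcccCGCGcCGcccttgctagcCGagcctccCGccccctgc
CPLX2: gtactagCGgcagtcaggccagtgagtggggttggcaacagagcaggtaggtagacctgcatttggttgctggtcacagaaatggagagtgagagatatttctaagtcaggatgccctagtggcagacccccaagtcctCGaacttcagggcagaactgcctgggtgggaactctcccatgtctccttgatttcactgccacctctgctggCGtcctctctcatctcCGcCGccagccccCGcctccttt

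The search was for the outer arms of RE1, TTCAGCACC and GGACAG, with exactly 2 bases between them and on both strands. Of 35116 promoter windows of that length, 5 (0.0142%) held both arms so spaced. SYN1 was the only one among the 7 of 9 genes with a promoter entry, and its match lay at -233 to -217 from the start site, at chrX:47620074-47620090. The left arm alone was in 0.288% of all windows and, among the 7 genes, in that of SYN1. The shorter right arm was in 17.2% of all windows and in those of SYN1, SYT1 and RAB3A. CpG counts ran from 6 in CPLX2 to 42 in VAMP2, against a median of 11 over all windows. SYP held 31, a number that 9.52% of windows exceeded, and SYN1 held 41, which 1.38% exceeded. These are counts of letters, and no binding or methylation was measured here.

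The question put to the arrays was which of these genes gave a signal above that of genes taken as silent. On each array the baseline was the mean plus 2 SD of 10 seminal protein genes, and a gene counted as detected when its mean distance to the baseline over 4 arrays was above 0. The baseline was 10.10 ± 0.52 log2 units (SD, n = 4 arrays) and ran from 9.47 on replicate 1 to 10.69 on replicate 3. By this rule 3 of the 9 genes were detected, SYP, VAMP2 and SYT1, while 52.7% of all genes were. SYP and VAMP2 lay above the baseline on all 4 arrays, as did 45.0% of all genes. RAB3A, SNAP25, SYN1, CPLX1 and CPLX2 lay above it on no array, as did 39.8% of all genes. The median distance of the 9 genes was -0.75 log2 units, and that of all named genes was 0.26. Probes differ in affinity, so distances of different genes do not rank the amounts of their transcripts.

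**Figure D1:**
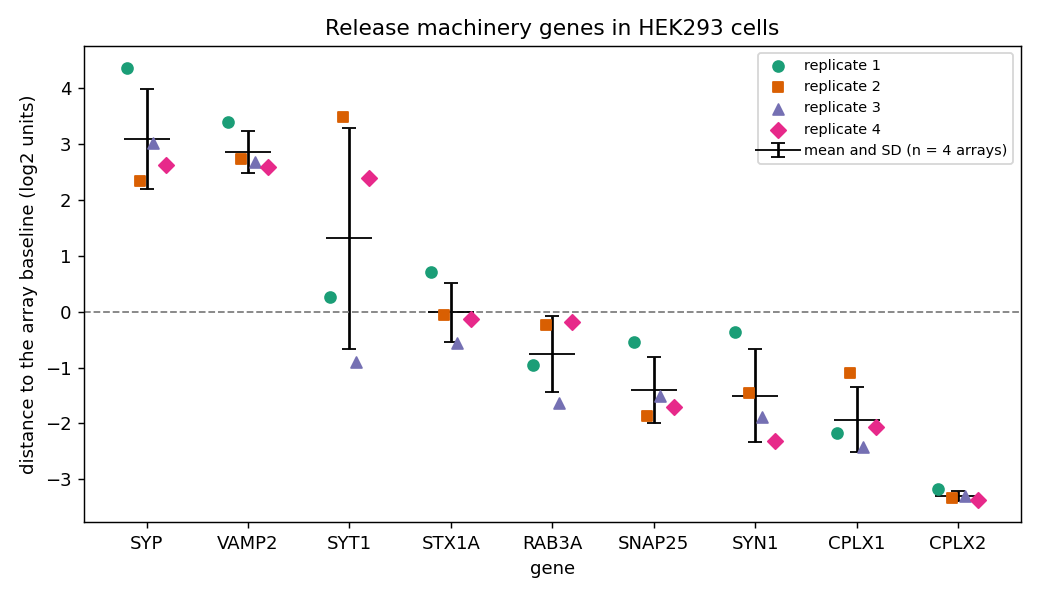
Distance of each gene to the baseline of its array in log2 units (vertical axis), by gene (horizontal axis), with 1 point per replicate array and bars for the mean and SD (n = 4 arrays). SYP and VAMP2 lie above 0 on every array, SYT1 runs from -0.89 to 3.48, and the 5 genes from RAB3A rightward lie below 0 on every array.

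SYP, the synaptophysin gene, gave the largest distance among the 9 genes. Its levels were 13.84, 12.28, 13.71 and 12.95 log2 units on replicates 1 to 4. It stood 3.09 ± 0.89 log2 units above the baseline (SD, n = 4), and each of its 3 probes was above the baseline on every array. The signal of SYP was thus well above that of the controls everywhere, with replicate 2 the lowest. Of all named genes 16.4% had a higher mean level. The genes whose 4 distances were most like those of SYP were RNF26, SPINT1 and NAT14, with root mean square differences of 0.13, 0.18 and 0.18 log2 units over 4 arrays, and 5 genes lay within 0.25.

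VAMP2, the SNARE of the vesicle, had levels of 12.87, 12.68, 13.37 and 12.92 on replicates 1 to 4 and stood 2.86 ± 0.37 log2 units above the baseline (SD, n = 4). Its level varied little between arrays, and its SD of 0.30 was exceeded by 72.1% of genes. Its 3 probes did not give the same answer. The brightest averaged 14.23 log2 units and another 12.04, and both were above the baseline on all 4 arrays. The third averaged 7.24 and was below the baseline on all 4 arrays. This range of 6.99 log2 units among the probes of a gene was exceeded by 0.581% of genes, and the median range was 1.53. The distance of VAMP2 was 1.40 when the log2 values of its probes were averaged instead. Its even level rests mostly on the brightest probe, which weighs most in a mean of linear values. The other probes were both lower on replicates 2 and 4. On replicates 1 to 4 the probe averaging 12.04 read 12.67, 11.65, 12.43 and 11.42. That averaging 7.24 read 7.60, 6.66, 8.07 and 6.62.

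SYT1 was the least even of the 9 genes. Its levels were 9.73 and 9.80 log2 units on replicates 1 and 3, and 13.41 and 12.71 on replicates 2 and 4. The highest array was 12.9-fold above the lowest. The gap between these pairs of arrays, 2.92 log2 units, was the largest step between neighbouring arrays, and 32 of 17217 genes (0.186%) had a larger one. All 3 probes showed it. On replicates 2 and 4 their values ran from 12.44 to 13.51, and on replicates 1 and 3 from 7.49 to 10.57. SYT1 stood at 0.26, 3.48, -0.89 and 2.39 log2 units from the baseline on replicates 1 to 4. Its mean of 1.31 ± 1.98 (SD, n = 4) was smaller than the spread between arrays. That mean was 0.59 without replicate 2 and 2.04 without replicate 3. In RNA from whole cultures, fewer cells that hold a transcript and less of it in each cell cannot be told apart.

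The labels give no condition that sets replicates 1 and 3 apart from 2 and 4. Of the 9 genes 5 had levels on replicates 1 and 3 that did not overlap those on 2 and 4, and 40.7% of all genes did. SYT1 and RAB3A were higher on replicates 2 and 4, while SYP, SNAP25 and SYN1 were lower there. The genes therefore did not move as a group between these arrays. Their steps other than that of SYT1 were at most 0.95 log2 units.

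**Figure D2:**
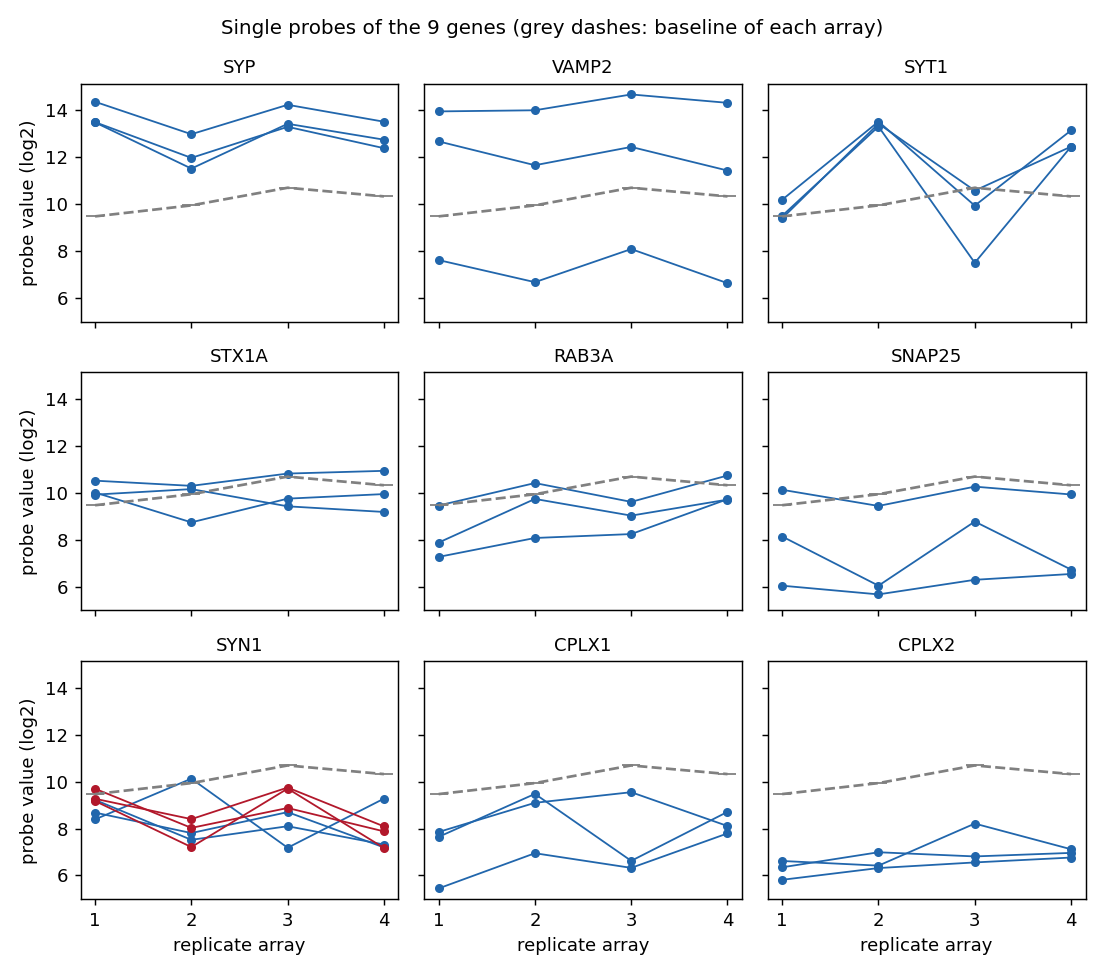
Log2 value of every probe (vertical axis) on replicate arrays 1 to 4 (horizontal axis), with 1 panel per gene, 1 line per probe and the baseline of each array as grey dashes. For SYN1 the 2 colours are its 2 targets. All 3 probes of SYT1 are higher on replicates 2 and 4, and 1 of the 3 probes of VAMP2 stays below the baseline throughout.

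STX1A and SNAP25, the neuronal SNAREs of the plasma membrane, were near and below the baseline. STX1A was the gene closest to it and the most even. Its levels were 10.17, 9.88, 10.13 and 10.20 on replicates 1 to 4, an SD of 0.15 that 94.3% of genes exceeded. Its distances were 0.71, -0.06, -0.56 and -0.12, with a mean of -0.01 ± 0.53 (SD, n = 4), so the baseline moved more than the gene did. It lay above the baseline on replicate 1 alone, but its probes split, with 1 at a mean of 10.64 above the baseline on all 4 arrays and the others, at 9.61 and 9.67, above it on 1 and 2 arrays. STX1A and SYT1, at 1.31, were the genes on either side of the detection limit. SNAP25, whose cleavage by botulinum toxin A stops release, had levels of 8.93, 8.08, 9.18 and 8.61. It stood at -0.54, -1.86, -1.51 and -1.71 and on average at -1.40 ± 0.60 log2 units (SD, n = 4). One of its probes averaged 9.94 and was above the baseline on replicate 1. The others averaged 6.13 and 7.42 and were below it everywhere, and the range of 3.81 among the probes was wider than that of all but 10.0% of genes.

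Among the regulators, RAB3A had levels of 8.51, 9.70, 9.06 and 10.14 on replicates 1 to 4, and its distance was -0.75 ± 0.68 log2 units (SD, n = 4). It came nearest to the baseline on replicates 2 and 4, at -0.24 and -0.18, and 1 of its 3 probes was above the baseline on those 2 arrays. SYN1 was measured by targets for 2 of its transcripts, which together gave 9.10, 8.47, 8.81 and 8.02 and a distance of -1.50 ± 0.83 (SD, n = 4). It was closest to the baseline on replicate 1, at -0.37. The targets differed on replicate 2, at 8.99 and 7.96, and on replicate 3, at 8.12 and 9.49, while the 6 probes were not alike. The first probe of the first target read 8.39, 10.13, 7.18 and 9.27 on replicates 1 to 4, higher on 2 and 4, where each of the other 5 was lower than on replicates 1 and 3. CPLX1 had levels of 7.31, 8.85, 8.27 and 8.25 and a distance of -1.93 ± 0.58 (SD, n = 4). Its lowest array, replicate 1, stood 0.95 log2 units under the next.

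CPLX2 was the lowest of the 9 genes. Its levels were 6.29, 6.60, 7.39 and 6.95, and 90.9% of all genes had a higher mean. Its distance of -3.29 ± 0.08 (SD, n = 4) barely varied, that is, CPLX2 rose and fell with the baseline of the array. In the order of the 9 distances, only CPLX1 and CPLX2 differed from each other, as neighbours, by more than the SD of their difference over the 4 arrays, at 1.36 ± 0.62 log2 units. Each other pair of neighbours lay within that spread. Of the 30 probes of the 9 genes, 6 were above the baseline on all 4 arrays and 15 on none, while of the probes of all named genes 38.3% were above on all 4 and 43.1% on none.

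Which genes were detected depended on the controls. Of the 10 seminal genes, AFG2A and SPATA13 stood at -0.13 and -0.38 from the baseline, and the other 8 lay between -3.58 and -2.85. Without AFG2A and SPATA13 the baseline fell to 7.78 log2 units and 8 of the 9 genes were detected, every gene but CPLX2. The share of all genes detected rose as well, from 52.7% to 74.0%. The same 8 were detected with 364 olfactory receptor genes as controls, at a baseline of 8.02, as were 71.4% of all genes. With the mean plus 3 SD of the seminal genes the baseline rose to 11.42. There 2 of the 9 genes were detected, SYP and VAMP2, and 39.1% of all genes. Over all the alternatives tried, the distance of SYP ran from 1.77 to 5.42 log2 units, that of VAMP2 from 1.40 to 5.18 and that of CPLX2 from -4.61 to -0.97. SYP and VAMP2 were thus detected, and CPLX2 not, at each of these baselines.

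**Figure D3:**
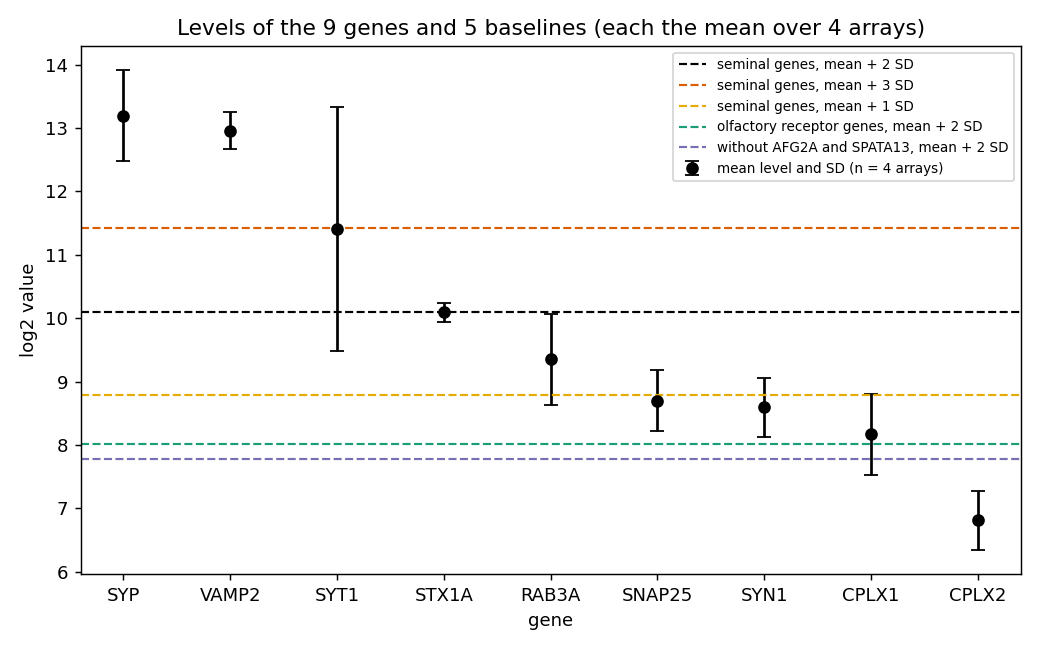
Mean log2 level of each gene with its SD (points and bars, n = 4 arrays) and, as dashed lines, the mean over 4 arrays of 5 baselines. SYP and VAMP2 lie above all 5 lines and CPLX2 below all 5, while the genes from SYT1 to CPLX1 lie between the highest line at 11.42 and the lowest at 7.78.

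The other genes of the pathway were taken from lists written by role. The 9 lists on release and recycling held 136 genes, of which 126 were measured and 67 (53.2%) were detected. A two-sided limma test of each distance against 0, adjusted over all 17217 genes, called 56 of the 126 above the baseline and 47 below it, and 23 passed in neither direction. Over all genes the test called 45.8% above and 41.1% below. The pooled lists therefore stood close to the background, and the lists themselves were uneven. The shift of an array's baseline is shared by all genes, so these tests are not independent.

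Of 15 SNARE paralogues, 10 were called above the baseline and 3 below, against 45.8% and 41.1% of all genes. Detected were 11 of the 15, and 14 without AFG2A and SPATA13, against 52.7% and 74.0% of all genes. The widely expressed relatives of the neuronal SNAREs were among those called above. SNAP23 stood at 1.56 ± 0.89 log2 units, STX4 at 3.18 ± 0.62, VAMP3 (cellubrevin) at 3.63 ± 0.59 and VAMP8 (endobrevin) at 4.39 ± 0.62 (SD, n = 4 for each). SNAP23 no longer passed against the mean plus 3 SD, at 0.24. VAMP1, the closest neuronal relative of VAMP2, named after its value was seen, stood at -0.08 ± 0.64 (SD, n = 4) and was called in neither direction. Probe sequences were not used here, so whether probes of VAMP2 and VAMP3 take up each other's transcript was not tested.

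SYT1's own family was uneven and its place depended on the controls. Of 18 synaptotagmins and related calcium sensors 2 were called above and 11 below, against 45.8% and 41.1% of all genes. Their median distance was -1.59 log2 units. By the detection rule 4 of the 18 were detected, and 11 were without AFG2A and SPATA13 or with olfactory receptor controls. The shares of all genes were 52.7%, 74.0% and 71.4% in that order. Those above were SYT9, a calcium sensor of secretion, at 1.71 ± 0.28, and DOC2A, a sensor of slower release, at 1.02 ± 0.69 (SD, n = 4 for each). SYT9 no longer passed against the mean plus 3 SD, at 0.39. DOC2A was at -0.02 with the median of its probes and at -0.30 against the mean plus 3 SD. SYT2, the closest relative of SYT1, stood at -0.59 ± 1.11 (SD, n = 4) and was called in neither direction. Both further complexins were called below the baseline, CPLX3 at -1.27 ± 1.27 and CPLX4 at -3.02 ± 0.36 (SD, n = 4 for each). CPLX3 was uneven and lay above the baseline on replicate 2, at 0.44. The call of CPLX3 turned to above, at 1.06 without AFG2A and SPATA13 and at 0.82 with olfactory receptor controls, while CPLX4 stayed below in both.

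Of 16 measured vesicle membrane proteins and synapsins, 7 were called above and 7 below the baseline, against 45.8% and 41.1% of all genes. Detection rose from 7 of the 16 to 12 without AFG2A and SPATA13, and from 52.7% to 74.0% of all genes. The largest distances belonged to proteins of general vesicle traffic, SCAMP2 at 4.51 ± 0.58, SYNGR2 at 4.28 ± 0.30 and SCAMP3 at 3.66 ± 0.66 (SD, n = 4 for each). SYPL1, the widely expressed relative of SYP, stood at 3.57 ± 0.99 (SD, n = 4). SV2A, a vesicle glycoprotein of neurons and endocrine cells, named after its value was seen, stood at 2.02 ± 0.63 (SD, n = 4). It no longer passed against the mean plus 3 SD, at 0.71. SYN2 stood at -0.02 ± 0.47 (SD, n = 4) and passed in neither direction, and SYN3, also named after its value was seen, was called below at -2.69 ± 0.59 (SD, n = 4). Without AFG2A and SPATA13 SYN3 stood at -0.36 and passed in neither direction.

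Of 14 Rab3 and Rab27 genes with their regulators and effectors, 6 were called above and 5 below, against 45.8% and 41.1% of all genes. Detected were 7 of the 14, and 12 without AFG2A and SPATA13, beside 52.7% and 74.0% of all genes. RAB3B, a paralogue of RAB3A, stood at 2.58 ± 0.39 log2 units, MADD, an exchange factor for Rab3, at 3.74 ± 0.56, and RAB3GAP2, a subunit of its GTPase activator, at 2.38 ± 0.62 (SD, n = 4 for each). RAB3D passed in neither direction, at -0.55 ± 0.79 (SD, n = 4). RAB3C, named after its value was seen, was called below at -3.01 ± 0.41 (SD, n = 4). RAB3D, like RAB3A, lay above the baseline with the other controls, at 1.78 without AFG2A and SPATA13 and at 1.53 with olfactory receptor genes.

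Of 25 priming and active zone proteins, 12 were called above and 9 below, against 45.8% and 41.1% of all genes. Detection rose from 16 of the 25 to 18 without AFG2A and SPATA13, and from 52.7% to 74.0% of all genes. The scaffold proteins CASK and LIN7C stood at 3.50 ± 0.49 and 3.27 ± 0.87 log2 units, and STXBP3, the widely expressed Munc18 protein, at 3.27 ± 0.67 (SD, n = 4 for each). SNARE disassembly and its chaperones gave 7 of 11 above and 3 below, beside the same shares of all genes. Detected were 8 of the 11, and 10 without AFG2A and SPATA13. The ATPase NSF stood at 3.20 ± 0.80, its adaptor NAPG at 3.19 ± 0.42 and the chaperone HSPA8 at 4.72 ± 0.81 (SD, n = 4 for each).

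None of the 7 vesicular transmitter transporters, which load glutamate, GABA, monoamines or acetylcholine, was detected against this baseline. Without AFG2A and SPATA13, 3 of the 7 were detected, and with olfactory receptor controls also 3. The shares of all genes were 52.7%, 74.0% and 71.4% in that order. The limma test called 6 of the 7 below the main baseline, against 41.1% of all genes. SLC17A7 stood nearest, at -0.59 ± 0.67 (SD, n = 4), and lay above the baseline, at 1.74, without AFG2A and SPATA13. SLC17A6 and SLC32A1 stood at -3.61 ± 0.67 and -3.24 ± 0.21 (SD, n = 4 for each).

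**Figure D4:**
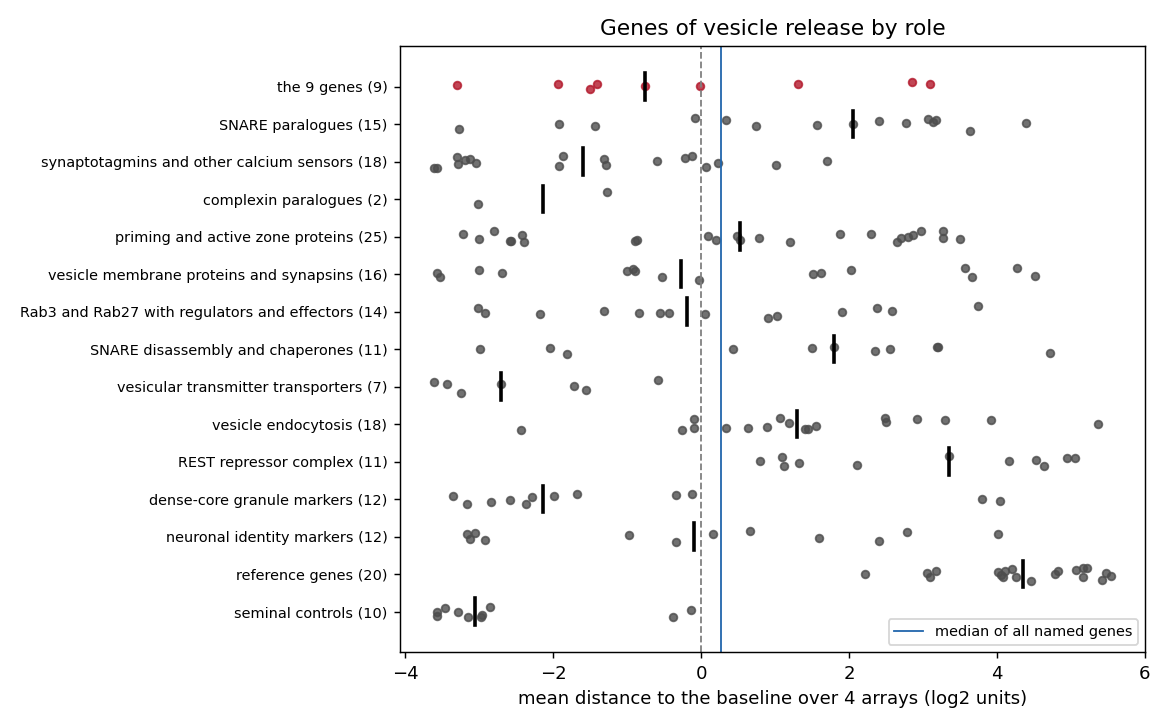
Mean distance to the baseline over 4 arrays in log2 units (horizontal axis) for every measured gene of each list (1 point per gene, number measured in brackets), with black bars for list medians and a blue line at the median of all named genes, 0.26. The 9 genes have a median of -0.75, SNARE paralogues of 2.06 and transmitter transporters of -2.70.

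REST and the proteins that work with it were then looked up. REST had levels of 10.09, 11.42, 12.07 and 11.19 log2 units on replicates 1 to 4. It lay above the baseline on each array, by 1.09 ± 0.41 (SD, n = 4, limma adjusted p = 0.0024). Against the mean plus 3 SD it stood at -0.23. All 11 genes of the REST list were called above the baseline, against 45.8% of all genes, with a median of 3.35 log2 units. With a baseline at the mean plus 3 SD 8 of the 11 were detected, against 39.1% of all genes. The corepressor RCOR1 stood at 2.11 ± 0.46, SIN3A at 4.53 ± 0.65, the deacetylases HDAC1 and HDAC2 at 4.63 ± 0.60 and 4.94 ± 0.69, and the demethylase KDM1A at 5.06 ± 0.63 (SD, n = 4 for each). Of the 5 genes with both RE1 arms in the promoter window 4 were measured and 0 were detected, against 52.7% of all genes. With SYN1 at -1.50 these were DRD3 at -3.24, GRIA2 at -3.54 and LHX3 at -3.19, named after their values were seen. Without AFG2A and SPATA13, SYN1 was detected, at 0.82, and the other 3 stayed below the baseline. Whether REST has a part in the level of any of these genes was not tested.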

How the data were processed

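RNA of 4 HEK293 cultures was measured on NimbleGen arrays designed on HG18. The authors extracted the images with NimbleScan 2.4, and they deposited 1 log2 value per probe and array. The submitters' processing notes name RMA, and neither they nor the methods state which arrays were normalized together. When the values of each array were ranked, replicates 1 and 2 differed by less than 0.01 for 99.97% of ranks, replicates 3 and 4 for 99.99%, and arrays of different pairs for at most 1.25%, which is the form of quantile normalization in 2 pairs. Spot background and saturation were not examined, and the number of arrays limits the precision.

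A target was log2 of the mean of its linear probe values, and a gene the mean of its targets. Accessions were matched to RefSeq symbols of GRCh38.p14, which named 19125 of 24000 targets. Of 11 seminal controls 10 were matched. Distances, their mean and SD followed the study's baseline rule. Lists were tested against 0 with limma 3.58 in R 4.3 (two-sided, Benjamini-Hochberg at 0.05 over all genes), and the prior degrees of freedom were infinite, so every gene had the same standard error of 0.351. The scripts were tested on simulated data. Alternatives changed the controls, the height of the baseline, the joining of probes and targets, the normalization, the test and the arrays used. The members and lists were chosen with earlier results of these data known. Named were the 9 genes, set paralogues, the controls, the top 3 of each list above the baseline on all 4 arrays, genes of lists of 11 or fewer and the 3 genes most like SYP. Other genes are marked where they occur. Some list genes enter the counts and are not reported here by name.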

Additional observations from a re-analysis of the deposited data

Results flagged for a closer look

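Among 124 sets of 4 values examined (the level and the distance of each named gene), 7 held 1 value far from the rest by Dixon's criterion, the gap to the nearest value over the whole range. Chance alone marks about 1 in 20. None of the 9 release genes was among them.

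For VAMP3 replicate 4 was lowest, at a level of 13.51 log2 units against 13.80 to 13.83, which gave a ratio of 0.888. NSF was lowest on replicate 3, at 12.82 against 13.45 to 13.48, with a ratio of 0.949. For SYN3 replicate 1 was highest, at 7.54 against 7.36 to 7.37, with a ratio of 0.941. For CPLX4 replicate 1 was lowest, at 6.69 against 7.19 to 7.26, with a ratio of 0.874. RCOR1 was also lowest on replicate 1, at 11.07 against 12.52 to 12.72, with a ratio of 0.876. SLC17A7 was highest on replicate 2, at 9.95 against 9.31 to 9.42, with a ratio of 0.834. The distance of NCAM1 was 3.58 on replicate 1, the array with the lowest baseline, against 2.44 to 2.63 elsewhere, with a ratio of 0.832.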

How the results depend on the processing

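No paired analysis was possible because the design holds a single group. The height of the baseline moved the results most. In all, 56 of 75 alternative values of the counts and shares stayed within 1.5 times (counts) or 1 SD between arrays (shares), and 19 moved further. Without AFG2A and SPATA13 there were 8 of the 9 genes detected, 74.0% of all genes, and 92 calls above and 20 below in the pooled release lists. With olfactory receptor controls these were 8, 71.4%, 90 and 23. With median plus 2 scaled median absolute deviations they were 7, 67.7%, 85 and 28. With 1 SD, 5 genes, 64.3% of all genes and 30 calls below were found. With 3 SD, 39.1% of all genes and 34 calls above were found. Asking for all 4 arrays left 45.0% of all genes. Testing only genes brighter than the mean control left 24 calls below, since fewer genes enter. Leaving out 1 array gave 3 to 4 of the 9 genes, 64 to 72 detected list genes, 52 to 60 calls above, 43 to 50 below, and 50.6% to 54.3% of all genes.

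Some genes changed sides of the baseline. Without AFG2A and SPATA13 the distances were 0.92 for SNAP25, 2.32 for STX1A, 0.82 for SYN1, 0.39 for CPLX1, 1.57 for RAB3A, 2.25 for VAMP1, 1.74 for SYT2, 2.30 for SYN2, 1.78 for RAB3D, 1.06 for CPLX3 and 1.74 for SLC17A7. With olfactory receptor controls the same genes gave, in that order, 0.68, 2.07, 0.58, 0.15, 1.33, 2.01, 1.49, 2.06, 1.53, 0.82 and 1.50. With the median absolute deviation SNAP25 was at 0.30, STX1A at 1.70, SYN1 at 0.20, RAB3A at 0.95, VAMP1 at 1.63, SYT2 at 1.12, SYN2 at 1.68, RAB3D at 1.16, CPLX3 at 0.44 and SLC17A7 at 1.12. With 1 SD STX1A was at 1.31, RAB3A at 0.57, VAMP1 at 1.24, SYT2 at 0.73, SYN2 at 1.29, RAB3D at 0.77, CPLX3 at 0.050 and SLC17A7 at 0.73. With 3 SD SYT1 was at -0.0081, DOC2A at -0.30 and REST at -0.23. With the mean of log2 probes STX1A was at 0.21 and VAMP1 at 0.15, and with their median DOC2A was at -0.024. With its highest target SYN2 was at 0.90. Leaving out 1 array put STX1A between -0.25 and 0.17, VAMP1 between -0.39 and 0.092 and SYN2 between -0.13 and 0.20, each highest without replicate 3. Further, 5 distances of list genes lost significance, 9 gained it and 30 distances of the 9 genes moved by more than their SD.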

Other observations

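Of 18 measured genes of vesicle endocytosis, the retrieval of membrane after fusion, 14 were detected, against 52.7% of all genes. With a baseline at the mean plus 3 SD 9 of the 18 were detected, against 39.1% of all genes. The limma test called 12 above the main baseline and 1 below, against 45.8% and 41.1% of all genes. Clathrin heavy chain CLTC stood at 5.37 ± 0.66 log2 units, and the dynamins that pinch off vesicles at 3.93 ± 0.35 for the widely expressed DNM2 and 3.30 ± 0.53 for the neuronal DNM1 (SD, n = 4 for each).

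Lists of other cell types were uneven. Of 12 measured markers of neurons 4 were called above the baseline and 5 below, against 45.8% and 41.1% of all genes. The largest distances were 4.01 ± 0.56 for the neurofilament light chain NEFL and 2.79 ± 0.53 for the adhesion protein NCAM1. The filament protein INA followed at 2.41 ± 1.04 (SD, n = 4 for each). At the other end 4 of the 12 lay above the baseline on no array, as did 39.8% of all genes, and the lowest stood at -3.16. By the detection rule 6 of the 12 were detected, and 8 without AFG2A and SPATA13, where 74.0% of all genes were. Of 12 markers of dense-core granules, the hormone and peptide stores of endocrine cells, 2 were called above and 8 below. Those above were the processing enzymes CPE at 4.05 ± 0.62 and PAM at 3.80 ± 0.69 (SD, n = 4 for each). Without AFG2A and SPATA13, 7 of these 12 markers were detected in place of 2, beside 74.0% of all genes in place of 52.7%. All 20 reference genes were called above the baseline, against 45.8% of all genes.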
